A study of Homo sapiens with 34 samples.

Results

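Nuclear speckle scaffold genes were taken here as 8 genes chosen by symbol, SON, SRRM2, SRRM1, PNN, ACIN1, BCLAF1, THRAP3 and PNISR. All 8 were in the deposited expression and splicing tables, and all 8 passed the filter on low reads, so they are 8 of 12067 genes tested. The splicing table lists 493 events for them out of 721536, and 262 of the 493 had 20 reads in every library, out of 213376 events that did.

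Nuclear speckles are bodies in the nucleus that hold splicing factors and lie beside active genes. SON and SRRM2 are the large proteins with stretches rich in arginine and serine on which speckles are built, and SRRM1 is a splicing coactivator of the same family of proteins. PNN and ACIN1 each form a complex with RNPS1 and SAP18 that sits on the exon junction complex, BCLAF1 and THRAP3 are related RS-rich proteins that bind spliced mRNA, and PNISR is an RS-rich partner of PNN. Detained introns are introns that stay in polyadenylated transcripts kept in the nucleus, often at or near speckles, and genes for splicing proteins often carry them.

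The cells were hTERT RPE-1, an immortalised human retinal pigment epithelium line. Every library came from cells that carried a lentiviral hybrid guide RNA (hgRNA), a single transcript with 1 guide for Cas9 and 1 for Cas12a, and that had been selected with puromycin (20 µg/ml for 72 h) and grown for another 4 days. The edited groups were an intronic deletion in DDX5 (hgRNA 1 and 2), a deletion across an exon with a premature stop codon (PTC exon) in DDX17 (hgRNA 1 and 2), an intronic deletion in FNBP4 (hgRNA 1 and 2), a deletion across a PTC exon in FNBP4 (hgRNA 3 and 4), a deletion across a PTC exon in HDAC7 (hgRNA 1 and 2), an intronic deletion in HNRNPD (hgRNA 1), and knockouts of DDX5, DDX17, FNBP4 and HDAC7 with an exonic Cas9 guide (1 hgRNA each). The controls were 2 hgRNAs that cut intergenic sites. Each of these 17 hgRNAs had 2 biological duplicates, 34 libraries in all. The labels name no clones, so the cells are taken as transduced populations, in which a change in every cell and a larger change in some of the cells cannot be told apart. The 2 HDAC7 deletion hgRNAs share a Cas9 guide, FNBP4 hgRNAs 2 and 3 share another, and the labels give the FNBP4 and HDAC7 knockouts the same Cas9 guide.

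Libraries held 12353936 to 20233610 reads across spliced junctions. The exon-intron reads were 0.965 to 1.21% of all junction reads in replicate 1 of the 4 knockouts, against 1.865 to 3.04% in the other 30 libraries, so these 4 libraries stand apart. Replicate 2 of the DDX17 deletion hgRNA 1, of the HDAC7 deletion hgRNA 1 and of control hgRNA 1 had 2.57 to 3.04%, above their own replicate 1, and deviated together over genes. The DDX5 deletion libraries were also high, with 2.45 and 2.23% for hgRNA 1 and 2.69 and 2.65% for hgRNA 2, against 2.11 to 2.57% in the 4 controls. Calls of the 8 genes that change without the 4 or the 3 libraries that stand apart are named beside the result. DDX5 was lower in the libraries labelled DDX5 knockout (log2 change -1.88, adjusted p = 8.2e-07, limma) and DDX17 in those labelled DDX17 knockout (-0.44, adjusted p = 0.012, limma), while FNBP4 and HDAC7 in the libraries labelled as their knockouts overlapped the controls. FNBP4 was higher by 1.61 on the log2 scale in its PTC exon deletion (adjusted p = 1.3e-05, limma). Of 12 markers of retinal pigment epithelium only MITF, OTX2, PAX6 and RDH5 averaged 1 CPM or more, the 6 markers of epithelia and of the line itself all did, and of 10 markers of other cells only CD68 did.

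The 8 genes sit at 8 separate loci (GENCODE v29, GRCh38). SON (ENSG00000159140.23 in the authors' expression table) lies at chr21:33542618-33577481 on the plus strand and overlaps GART and DONSON on the minus strand. SRRM2 (ENSG00000167978.18) lies at chr16:2752329-2772538, plus strand, with SRRM2-AS1 and ELOB on the other strand. SRRM1 (ENSG00000133226.19) is at chr1:24631716-24673267 and THRAP3 (ENSG00000054118.15) at chr1:36224416-36305357, both plus strand. PNN (ENSG00000100941.9) is at chr14:39175183-39183218, plus strand, and ACIN1 (ENSG00000100813.15) at chr14:23058564-23095614, minus strand. BCLAF1 (ENSG00000029363.17) is at chr6:136256627-136289851 and PNISR (ENSG00000132424.17) at chr6:99398051-99425331, both minus strand. SRRM1, BCLAF1 and THRAP3 have pseudogenes elsewhere in the annotation. SON, SRRM2, PNN, ACIN1 and PNISR overlap a gene on the other strand and THRAP3 the processed pseudogene UBE2V2P4, and whether the splicing counts used strand is not given in the sources used here, so reads of such pairs may be mixed where junctions coincide. SON and SRRM2 hold exons of 5916 and 6701 bases, longer than the longest exon of 92.7 and 94.95% of the tested genes. BCLAF1 and PNISR transcripts have a GC content of 36.4 and 36.8%, above that of only 4.09 and 4.94% of the tested genes.

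Several splice sites and exons carry the findings below and are printed 5′ to 3′ on the strand of their gene, read from GENCODE v29 transcripts that contain them. The first pair are the ends of SRRM2 intron 9 (chr16:2759662-2760300, 639 bases, 48.8% GC), the most retained intron of SRRM2. Capitals mark the first 2 and last 2 intron bases, with 10 exon bases outside them.
SRRM2 intron 9, 5′ end (chr16:2759652-2759701, plus strand): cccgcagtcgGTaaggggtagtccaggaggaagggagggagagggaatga
SRRM2 intron 9, 3′ end (chr16:2760251-2760310, plus strand): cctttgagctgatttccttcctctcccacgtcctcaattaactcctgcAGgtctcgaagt
The ends of SRRM1 intron 3 (chr1:24646790-24648858, 2069 bases, 34.1% GC), a member intron with little retention, are set beside it.
SRRM1 intron 3, 5′ end (chr1:24646780-24646829, plus strand): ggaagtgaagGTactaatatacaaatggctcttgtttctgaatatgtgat
SRRM1 intron 3, 3′ end (chr1:24648809-24648868, plus strand): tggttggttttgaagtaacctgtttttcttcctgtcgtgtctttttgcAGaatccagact
Both introns have GT and AG ends. The next pair are cassette exons of ACIN1, in capitals, with 10 bases of the neighbouring exons in lower case. Exon 4 of 19 has 120 bases, a multiple of 3, and is coding. The other exon has 62 bases, lies inside intron 8 of the principal transcript and is in 2 annotated coding transcripts.
ACIN1 exon 4 (chr14:23089982-23090101, minus strand): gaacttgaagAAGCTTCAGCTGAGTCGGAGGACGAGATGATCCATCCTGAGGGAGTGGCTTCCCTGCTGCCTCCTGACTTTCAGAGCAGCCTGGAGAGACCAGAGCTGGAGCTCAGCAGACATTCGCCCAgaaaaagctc
ACIN1 exon inside intron 8 (chr14:23071125-23071186, minus strand): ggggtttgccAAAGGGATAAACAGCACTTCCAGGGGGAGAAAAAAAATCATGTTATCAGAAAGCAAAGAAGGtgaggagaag

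Per transcript length, SON and SRRM2 were the most abundant of the 8 mRNAs. The authors' deposited table gives RPKM (reads scaled by transcript length and library depth) with 1 column for each edited hgRNA and 1 for the controls, so these values carry no SD. In its control column SON had 95.25 RPKM, SRRM2 88.8, ACIN1 61.8, SRRM1 59.6, THRAP3 43.2, BCLAF1 39.8, PNN 22.2 and PNISR 17.55. Over hgRNAs in the authors' deposited table THRAP3 kept a narrow range (39.45 to 46.7 RPKM) and PNISR a wide one (9.53 RPKM in the FNBP4 knockout to 30.5 RPKM in FNBP4 hgRNA 3). SRRM2, PNN and ACIN1 were all highest in DDX5 deletion hgRNA 2 in the authors' deposited table (132, 35.2 and 90.25 RPKM). SRRM2 and ACIN1 were both lowest in the HDAC7 knockout (68.4 and 42.5 RPKM). That column pools replicates 1 and 2, which lay apart in spliced-junction reads (112 and 176 CPM for SRRM2, 50.1 and 87.0 CPM for ACIN1). Of the 120 false discovery rates in the authors' deposited table for these genes, 1 was under 0.05, that of BCLAF1 in FNBP4 hgRNA 3. The fit used here, which joins FNBP4 hgRNAs 3 and 4, did not call BCLAF1 (adjusted p = 0.23, limma).

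The level of each gene in each library was measured as its reads across spliced junctions scaled to the depth of the library (CPM), which compares libraries for 1 gene and not genes with each other. The plot of the 8 genes by library shows the edited groups around the controls, with wide gaps between the replicates of each knockout for SRRM2, PNN and ACIN1.

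**Figure D1:**
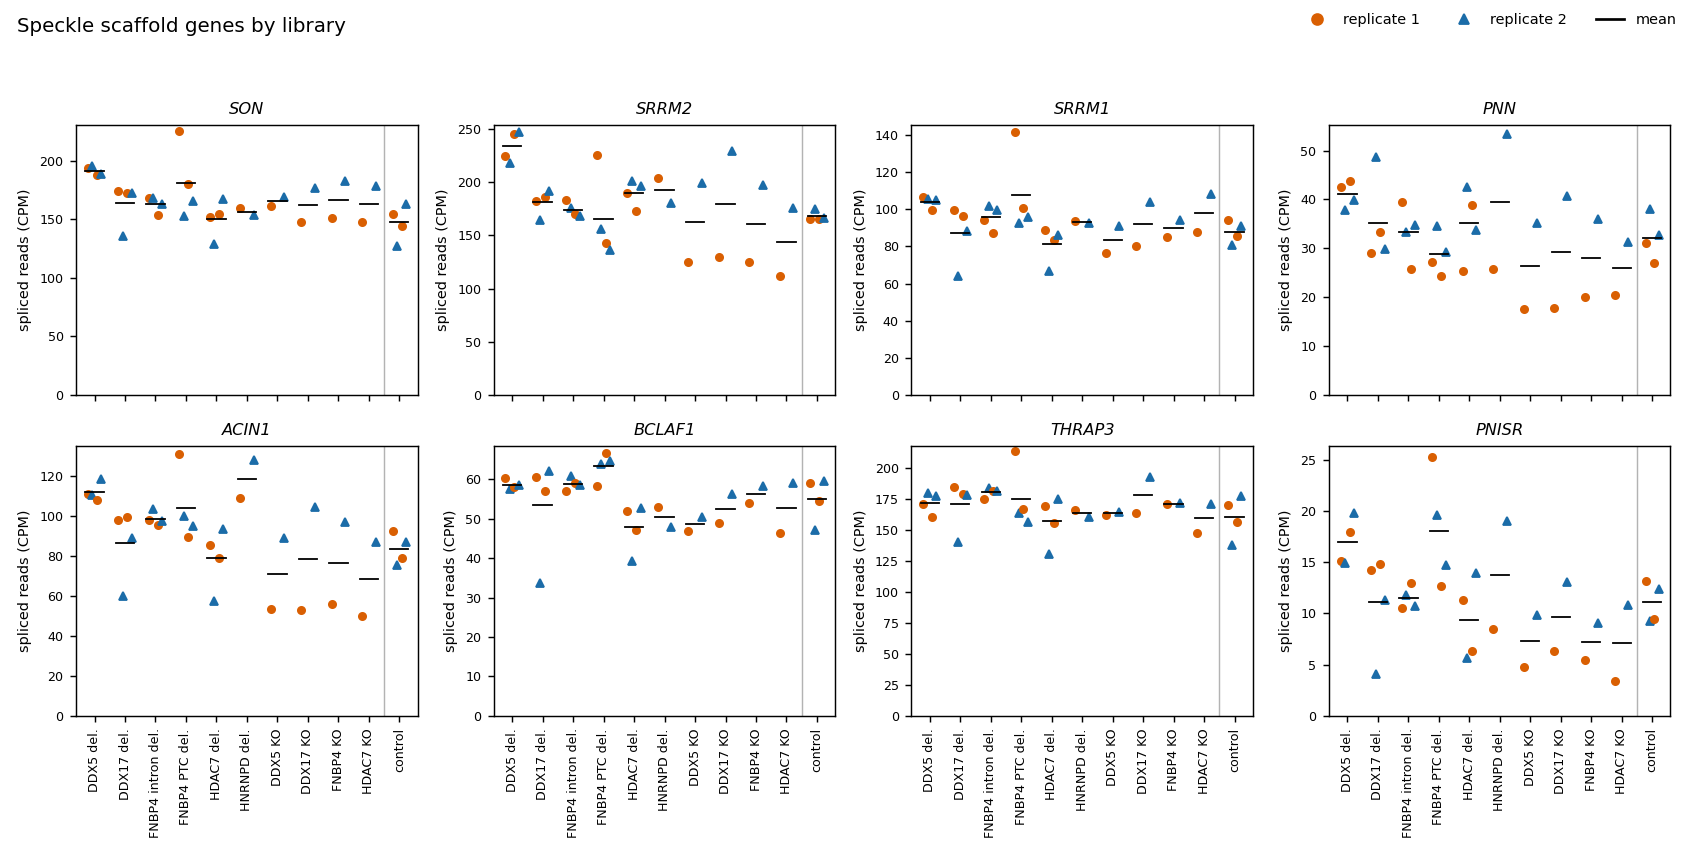
Spliced-junction reads scaled to depth (CPM, linear axis from 0) of the 8 genes in each of the 34 libraries, by edited group and with the controls at the right; circles are replicate 1, triangles replicate 2 and bars the mean. The 4 DDX5 deletion libraries lie above all controls for SON (187.6 to 195.1 CPM) and SRRM2 (218 to 247 CPM), and replicate 1 of the knockouts lies low for SRRM2, PNN and ACIN1.

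The deletion in DDX5, which encodes an RNA helicase with roles in splicing, gave the highest median change of the 8 genes among the 10 edits. All 8 had a positive log2 change, with a median of 0.37, beside -0.01 for all genes, and 1 of the 8, SON, rose past an adjusted p of 0.05. DDX5 itself had 386 to 419 CPM in these libraries, against 519.9 to 588.7 CPM in controls (log2 change -0.45, adjusted p = 0.040, limma). Over all genes 16.9% were called in this comparison, 6.91% as higher. Both hgRNAs had SON and SRRM2 above all controls. The exon-intron share lay above all controls in the 2 libraries of DDX5 hgRNA 2 and within their range in the 2 libraries of hgRNA 1. The part of this share in these levels was not tested. In 5 of the 8 every DDX5 deletion library lay above every control, as did 16.2% of all genes.

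SON had 194, 195.1, 188 and 188.8 CPM in the DDX5 deletion libraries, against 154, 127, 144 and 163 CPM in the controls. The groups did not overlap, and SON averaged 191 ± 3.75 CPM in the deletion and 147 ± 15.2 CPM in controls (SD, n = 4 each). The change was 0.38 ± 0.11 on the log2 scale (SE, adjusted p = 0.020, limma). It depended on single libraries, with an adjusted p of 0.13 without replicate 2 of control hgRNA 1, 0.094 without replicate 1 of control hgRNA 2, 0.055 and 0.057 without replicate 1 or 2 of DDX5 hgRNA 1, and 0.0610 without replicate 2 of DDX5 hgRNA 2 (limma). It was 0.198 against control hgRNA 2 alone (log2 change 0.32, limma). It was 0.0601 (limma) without the 3 replicate 2 libraries that have many exon-intron reads, which include replicate 2 of control hgRNA 1. The DDX5 hgRNA 2 libraries, with a higher exon-intron share than that control, stayed in. The change was 0.25 once trends with GC content and length were removed, where SON was still called (adjusted p = 0.023, limma). The authors' deposited table gives SON a log2 change of 0.24 with DDX5 hgRNA 1 and 0.22 with hgRNA 2 (false discovery rates 0.17 and 0.25). 

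SRRM2 had 225, 218, 246 and 247 CPM in the DDX5 deletion libraries, against 166, 175, 165 and 166 CPM in the controls. The controls spanned a narrow range and every deletion library lay above it. The log2 change was 0.48 ± 0.17 (SE) with an adjusted p of 0.057 (limma). SRRM2 was called without the 4 replicate 1 knockout libraries (adjusted p = 0.00130, limma), and also with GC and length trends removed (adjusted p = 0.014, limma).

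ACIN1 had 111, 111, 108 and 118.9 CPM in the DDX5 deletion libraries, against 92.8, 75.8, 79.2 and 87.2 CPM in the controls, with a log2 change of 0.43 ± 0.21 (SE, adjusted p = 0.18, limma). It was called without the 4 replicate 1 knockout libraries (adjusted p = 0.039, limma). PNISR had 14.9 to 19.8 CPM in the deletion and 9.31 to 13.2 CPM in the controls, a log2 change of 0.61 ± 0.33 (SE, adjusted p = 0.23, limma). SRRM1 was the fifth gene without overlap, at 99.5 to 107 CPM in the deletion and 80.6 to 94.0 CPM in controls (log2 change 0.25 ± 0.13, adjusted p = 0.22, limma). PNN, BCLAF1 and THRAP3 overlapped the controls, with log2 changes of 0.36, 0.10 and 0.11.

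Of 28 other RS-rich proteins of speckles, 3 rose in the DDX5 deletion and none fell, where 6.91% of all genes were called higher, with a median log2 change of 0.22. These were SCAF1, a partner of the RNA polymerase II tail (153 ± 2.75 CPM in the deletion and 125 ± 5.33 CPM in controls, SD, n = 4 each), SNRNP70, the core protein of the U1 particle (189.2 ± 8.46 and 132 ± 5.87 CPM), and RBM39, a splicing coactivator (224.5 ± 6.80 CPM in the deletion and 154 ± 21.8 CPM in controls). Of 12 tested SR proteins 1 rose and 1 fell, and of 8 partners of PNN and ACIN1 in the exon junction and RNPS1 complexes 1 rose.

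**Figure D2:**
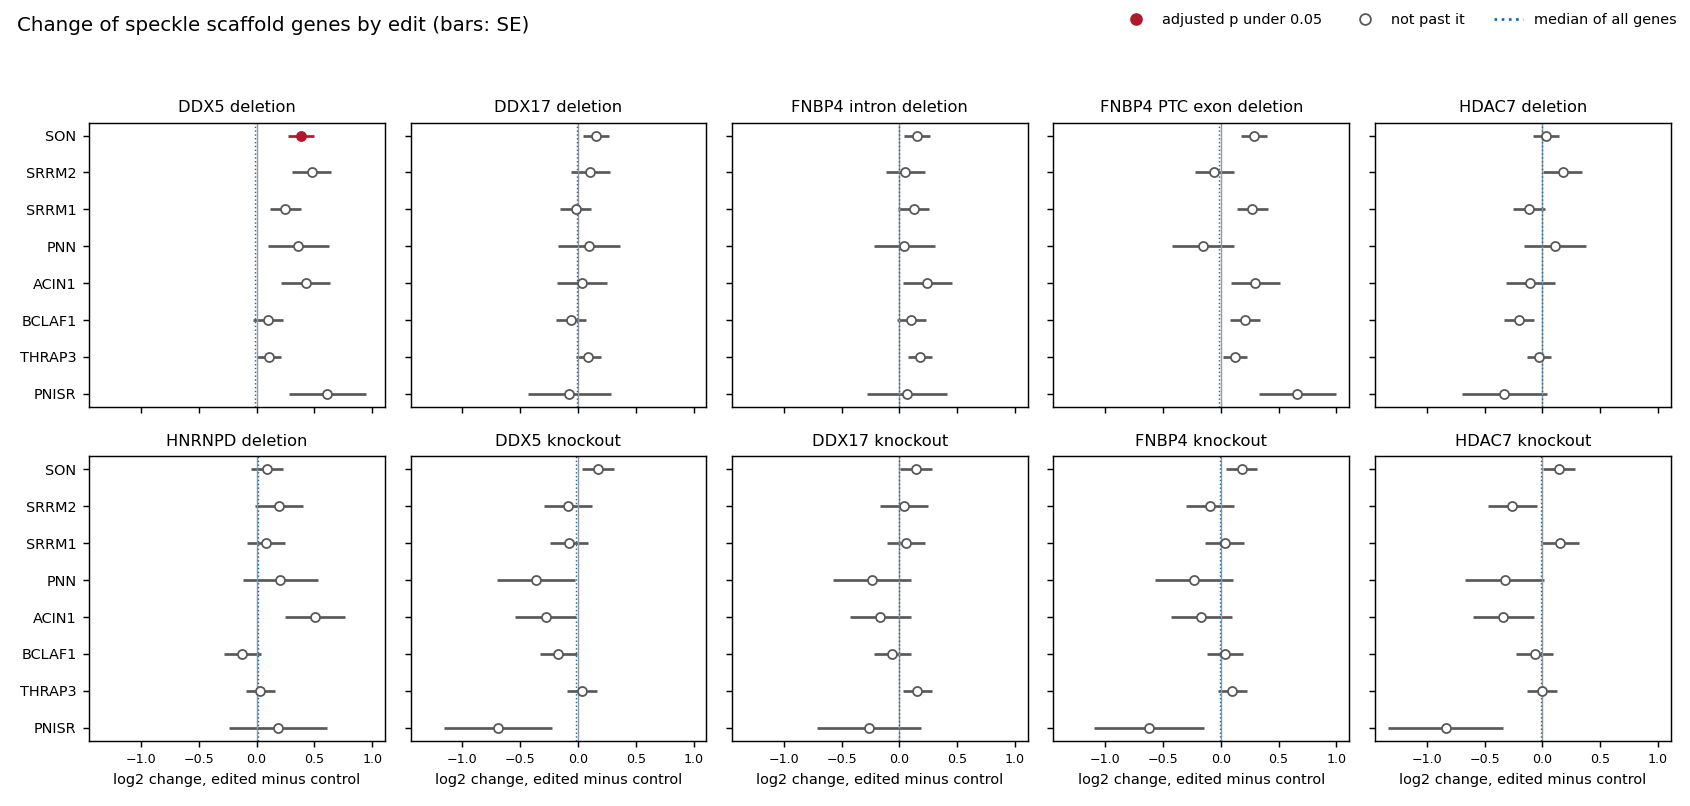
Log2 change of each gene in each of the 10 edits against the 4 control libraries, with bars of 1 SE, in limma; filled red points passed an adjusted p of 0.05, the dotted line is the median of all 12067 genes. SON in the DDX5 deletion is the 1 filled point of 80, and PNISR has the widest bars.

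In the PTC exon deletion in FNBP4, a protein with WW domains that binds formin, none of the 8 genes was called, although 3173 of 12067 genes (26.3%) were. Of the 8, 6 had a positive change and 1 an unadjusted p under 0.05, and the median log2 change was 0.24. SON had 225, 152.5, 180 and 165.5 CPM in these libraries, against 127 to 163 CPM in controls. Its log2 change was 0.29 ± 0.11 (SE, adjusted p = 0.060, limma). In the authors' deposited table it was -0.06 with hgRNA 3 and 0.10 with hgRNA 4 (false discovery rates 0.84 and 0.76). Replicate 1 of hgRNA 3 was the highest library of all 34 for SON, SRRM1 (141 CPM), ACIN1 (131 CPM), THRAP3 (213.2 CPM) and PNISR (25.3 CPM), while replicate 2 of the same hgRNA had 152.5 CPM for SON and 92.4 CPM for SRRM1. Without that replicate 2, SON (0.45, adjusted p = 0.0027) and SRRM1 (0.45, adjusted p = 0.012) were called by limma. SON was also called with a higher filter on low counts (0.30, adjusted p = 0.047, limma) and without replicate 1 of control hgRNA 1 (0.38, adjusted p = 0.029, limma). SRRM2 was 226 and 156 CPM with hgRNA 3 and 142.5 and 136 CPM with hgRNA 4, against 165 to 175 CPM in controls, so replicate 1 of hgRNA 3 lay above every control and the other 3 libraries below.

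Of the 28 RS-rich proteins 7 rose and 1 fell in the FNBP4 PTC exon deletion, near the 26.3% of all genes called there. Among those that rose were CIR1 (37.2 ± 4.62 CPM in the deletion and 22.98 ± 1.97 CPM in controls), RSRC2 (34.7 ± 4.46 and 22.7 ± 1.72 CPM), RBM6 (116 ± 22.8 CPM in the deletion and 73.45 ± 4.02 CPM in controls) and the kinase PRPF4B (63.8 ± 10.1 and 42.05 ± 4.29 CPM; SD, n = 4 each). In the TREX complex, which exports mRNA, 3 of 11 tested genes were called, again near that share. Its helicase DDX39A fell by 0.61 on the log2 scale (47.0 ± 9.13 CPM in the deletion and 71.3 ± 4.19 CPM in controls, adjusted p = 0.0012, limma), while THOC1 and THOC7 rose (0.44 and 0.33, adjusted p = 0.018 and 0.043, limma). Among markers of retinal pigment epithelium SERPINF1, OTX2 and MITF rose and RDH5 fell in the same libraries, and the part of this in the levels of speckle genes was not tested.

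The intronic deletion in FNBP4, the DDX17 and HDAC7 deletions and the HNRNPD deletion called none of the 8 genes. Genes called in these comparisons were 3.56, 5.03, 1.81 and 8.93% of all genes. In the intronic deletion of FNBP4 all 8 log2 changes were positive but small, from 0.04 to 0.24, and ACIN1 lay above all controls (95.6 to 103.5 CPM), as did 10.1% of all genes, and in DDX17 and HDAC7 deletions 5 and 3 of the 8 were positive. ACIN1 had 109.3 and 128.3 CPM in the 2 HNRNPD deletion libraries, against 75.8 to 92.8 CPM in controls, without overlap, as for 19.5% of all genes (log2 change 0.50 ± 0.26, SE, adjusted p = 0.26, limma). With only the libraries of this comparison in the fit ACIN1 was called (adjusted p = 0.025, limma). SRRM2 also lay above all controls in the HNRNPD deletion, at 180.8 to 203.8 CPM against 165 to 175 CPM in controls (log2 change 0.19 ± 0.21, adjusted p = 0.65, limma), and 7 of the 8 changes were positive. HNRNPD encodes an RNA-binding protein of AU-rich elements.

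Replicate 2 of DDX17 deletion hgRNA 1 and of HDAC7 deletion hgRNA 1 went apart from their own replicate 1 in these genes. BCLAF1 had 33.6 CPM in replicate 2 and 60.7 CPM in replicate 1 of DDX17 hgRNA 1, and 39.3 and 52.1 CPM in replicates 2 and 1 of HDAC7 hgRNA 1. ACIN1 had 60.0 and 98.2 CPM in replicates 2 and 1 of DDX17 hgRNA 1, and 57.5 and 85.8 CPM in those of HDAC7 hgRNA 1. PNN went the other way, at 48.6 and 29.01 CPM in replicates 2 and 1 of DDX17 hgRNA 1, and 42.6 and 25.4 CPM in those of HDAC7 hgRNA 1. Replicates 2 and 1 of control hgRNA 1 differed in the same directions, with 47.1 and 58.99 CPM for BCLAF1, 75.8 and 92.8 CPM for ACIN1 and 38.1 and 31 CPM for PNN. The replicate 2 libraries of these 3 hgRNAs have many exon-intron reads, and the part of that in these levels was not tested.

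In the 4 knockouts none of the 8 genes was called, with 10.2, 1.72, 8.26 and 6.68% of all genes called in the DDX5, DDX17, FNBP4 and HDAC7 knockouts. Replicates 1 and 2 of each knockout lay apart in SRRM2, PNN and ACIN1. SRRM2 had 125, 130, 125 and 112 CPM in replicate 1 of the DDX5, DDX17, FNBP4 and HDAC7 knockouts, and 200, 229, 197 and 176 CPM in replicate 2, against 165 to 175 CPM in controls. The controls thus lay between the replicates of every knockout. PNN had 17.6 to 20.5 CPM in replicate 1 of the knockouts and 31.3 to 40.8 CPM in replicate 2, against 26.9 to 38.1 CPM in controls. ACIN1 had 50.1 to 56.2 CPM in replicate 1 and 87.0 to 105 CPM in replicate 2, against 75.8 to 92.8 CPM in controls. For SRRM2, PNN and ACIN1 all 4 replicate 1 libraries lay below the other 30 libraries, as they did for 3.04% of all genes. PNISR in the FNBP4 knockout (5.43 and 9.08 CPM) lay below the controls in both libraries, as did 16.8% of all genes. The replicate 1 libraries are those with few exon-intron reads, and the part of that in these levels was not tested.

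Between edits of the same gene, the DDX5 deletion stood above the DDX5 knockout for all 8 genes, but none of these differences was called (4.68% of all genes were). SRRM2 averaged 234 ± 14.5 CPM in the deletion (SD, n = 4) and 162.5 ± 52.5 CPM in the knockout (SD, n = 2), a log2 difference of 0.56 ± 0.21 (SE, adjusted p = 0.12, limma), which was 0.26 without the replicate 1 knockout libraries (adjusted p = 0.59, limma). PNISR, ACIN1 and PNN differed by 1.31, 0.71 and 0.73 on the log2 scale (adjusted p = 0.10, 0.12 and 0.21, limma), and PNISR was called without the 3 replicate 2 libraries with many exon-intron reads (1.35, adjusted p = 0.036, limma). In the other 4 differences 8.9, 6.12, 30.4 and 5.31% of all genes were called (DDX17 deletion minus knockout, HDAC7 deletion minus knockout, FNBP4 PTC exon minus intronic deletion, DDX5 minus DDX17 deletion). SRRM2 was called between the DDX5 and DDX17 deletions without the 4 replicate 1 knockout libraries (0.38, adjusted p = 0.020, limma). In that contrast BCLAF1, PNISR, SON and SRRM1 were called without replicate 1 of DDX17 hgRNA 1 (adjusted p of 0.017, 0.040, 0.044 and 0.022, limma). SON was called between the 2 FNBP4 deletions without replicate 2 of hgRNA 3 (0.30, adjusted p = 0.032, limma). PNISR was the 1 gene of the 8 called in any of the 6 differences tested, between the FNBP4 PTC exon deletion and the libraries labelled FNBP4 knockout, a contrast in which 30.9% of all genes were called. FNBP4 itself overlapped the controls in those libraries (22.3 to 44.5 CPM, against 34 to 44.6 CPM in controls, adjusted p = 0.53, limma), and their labelled Cas9 guide is that of the HDAC7 knockout. PNISR had 25.3, 19.6, 12.7 and 14.7 CPM in the deletion, against 5.43 and 9.08 CPM in the knockout, so that the groups did not overlap. The share of all genes without overlap in this contrast was not counted. The log2 difference of PNISR was 1.28 ± 0.46 (SE, adjusted p = 0.038, limma). It lost the call without replicate 1 (adjusted p = 0.27) or replicate 2 (0.080) of the knockout, without replicate 1 of hgRNA 3 (0.076) and without replicate 1 (0.054) or 2 (0.071) of hgRNA 4, all by limma. Without all 4 replicate 1 knockout libraries it was 0.95 (adjusted p = 0.21, limma), and without a filter on low counts the adjusted p was 0.058 (limma). SRRM1 was called in this contrast without replicate 2 of hgRNA 3 (0.42, adjusted p = 0.045, limma).

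In the DDX5 knockout, where 10.2% of all genes were called, 1 of the 28 RS-rich proteins rose, 2 of 28 had a positive change and the median log2 change was -0.23, beside -0.02 for all genes. In the HDAC7 knockout (6.68% of all genes called) 1 of 28 rose, 5 of 28 were positive and the median was -0.25, beside -0.01 for all genes. In the DDX17 and FNBP4 knockouts 8 of 28 were positive in each, with medians of -0.13 and -0.09. Of the 9 kinases that phosphorylate RS domains, 2 fell in the FNBP4 knockout (8.26% of all genes called), 1 fell in the DDX5 deletion (16.9%), and 1 rose in the FNBP4 PTC exon deletion (26.3%) and 1 in the DDX5 knockout (10.2%). Of the 12 tested SR proteins 2 rose in the FNBP4 knockout and 1 in the HDAC7 knockout, and 1 rose and 1 fell in the FNBP4 PTC exon deletion. In the DDX5, DDX17, FNBP4 and HDAC7 knockouts 8, 8, 10 and 9 of these 12 had a positive change. In the same order 7, 8, 8 and 9 of 11 tested TREX genes and 4, 6, 4 and 3 of the 9 kinases were positive. Of the 8 partners of PNN and ACIN1, 1 rose in each of the DDX5, FNBP4 and HDAC7 knockouts, and 1 rose and 1 fell in the HNRNPD deletion (8.93% of all genes called). Of these partners 7, 8, 8 and 8 were positive in the DDX5, DDX17, FNBP4 and HDAC7 knockouts, with medians of 0.18, 0.27, 0.26 and 0.29. Replicate 1 of each knockout has few exon-intron reads, and the part of that in the changes of these lists was not tested. In the HNRNPD deletion OTX2, SERPINF1 and PAX6 rose among 6 tested markers of retinal pigment epithelium, and the part of this in the levels of the 8 genes was not tested.

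The 8 genes did not all move together from library to library. Over the 34 libraries, which share groups and library preparation, Pearson correlations of log2 CPM between pairs of the 8 ranged from -0.14 (PNN and BCLAF1) to 0.90 (ACIN1 and PNISR), with a median of 0.62 over 28 pairs. PNN was also at -0.13 with THRAP3 and 0.04 with SRRM1, while SRRM1 and SON were at 0.86. The 5 other genes whose log2 CPM went most closely with the mean of the 8 were CCDC14 (0.95), CCNL1 (0.95), CCDC18 (0.93), ROCK2 (0.93) and TPR (0.93), by Pearson correlation over the 34 libraries. CCNL1 encodes cyclin L1, an RS-rich protein of speckles, and TPR the basket protein of the nuclear pore.

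Among introns with 20 reads in every library, the most retained of these genes were in SRRM2 and ACIN1. Summed per gene, retention in controls averaged 10.1% in PNISR, 9.68% in SRRM2 and 6.56% in ACIN1. Retention of an intron is given as the mean of the reads at its exon-intron junctions, as a percent of those and the spliced reads. The libraries were made from total RNA, so these reads can also come from transcripts not yet spliced. Whether any of these introns is detained was not tested. Of 63 member introns with 20 reads in every library, 4 were retained at 20% or more in controls, against 2.83% of 52510 such introns, 2 each in SRRM2 and ACIN1. SRRM2 intron 9, whose ends are printed above, was retained at 45.1 ± 6.64% in controls (SD, n = 4), and SRRM2 intron 12 (chr16:2769285-2770351, 1067 bases) at 38.2 ± 5.30%. ACIN1 intron 9 (chr14:23066009-23069475, 3467 bases) was retained at 29.6 ± 1.34%. The fourth, at chr14:23071187-23071426, is a stretch of 240 bases just before the 62-base ACIN1 exon, inside intron 8 of the principal transcript, and was retained at 94.7 ± 2.38% where its junctions were read. It is spliced out in 2 annotated transcripts and is part of exon sequence in 3 others, so its high value can be that of an exon. All 4 lie between coding exons.

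The most retained introns of the other genes were much lower in controls. They were PNN intron 7 (chr14:39179247-39179323, 77 bases) at 6.98 ± 3.07%, SON intron 8 (chr21:33569088-33573307, 4220 bases) at 5.79 ± 1.64%, THRAP3 intron 11 (chr1:36301697-36303795) at 5.17 ± 2.41%, SRRM1 intron 3 at 2.95 ± 0.93% and BCLAF1 intron 4 (chr6:136276509-136277864) at 2.04 ± 1.11% (SD, n = 4). PNISR had 1 intron with 20 reads in every library, at 0.461%. A PNISR intron that missed this limit in 1 library, chosen after its values were seen, was retained at 15.9 ± 3.59% in controls.

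SRRM2 introns 9 and 12 and ACIN1 intron 9 were low in replicate 1 of every knockout, while the 240-base stretch of ACIN1 was at 91.3% or more there, against 91.2 to 96.6% in controls. SRRM2 intron 12 and ACIN1 intron 9 were chosen after their values were seen. SRRM2 intron 9 was retained at 8.28, 4.94, 4.86 and 4.83% in replicate 1 of the DDX5, DDX17, FNBP4 and HDAC7 knockouts and at 49.8, 53.5, 37.9 and 59.5% in replicate 2, against 47.5, 50.5, 35.4 and 47.1% in controls. In the 22 deletion libraries it ran from 34.4 to 70.1%, with a median of 52.3%. SRRM2 intron 12 was at 3.18, 1.56, 4.04 and 1.61% in replicate 1 of these knockouts and at 43.4, 45.0, 30.2 and 51.9% in replicate 2, against 32.4 to 44.8% in controls. In both introns replicate 1 of every knockout lay far below all other libraries, and replicate 2 within or around the controls' range. ACIN1 intron 9 was at 1.89 to 9.68% in replicate 1 of the knockouts and at 30.7, 32.3, 26.8 and 16.2% in replicate 2 of the DDX5, DDX17, FNBP4 and HDAC7 knockouts, against 27.7 to 30.7% in controls. SON intron 8 was at 0.23 to 1.40% in replicate 1 and 3.73 to 7.33% in replicate 2, against 4.37 to 8.06% in controls. SRRM1 intron 3 was also lowest in replicate 1 (0.33 to 0.73%), with 0.84 to 2.69% in replicate 2 and 1.93 to 4.15% in controls.

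Among the member introns retained at 20% or more in controls, 3 of 4 had all 4 replicate 1 knockout libraries below the other 30 libraries, against 12.8% of 1487 such introns of all genes. Those 1487 had a median retention of 95.1% both in these 4 libraries and in the other 30, unlike the 3 member introns, which were at 29.6 to 45.1% in controls. At 5% or more it was 5 of 9 member introns, against 23.6% of 4611 introns. Summed per gene, retention in these 4 libraries lay below the other 30 for SON, SRRM2, SRRM1, ACIN1 and THRAP3, as it did for 34.3% of the 7229 genes with enough exon-intron reads. In SRRM2 it was 0.77 to 1.00% in these libraries and 7.93 to 10.7% in replicate 2 of the knockouts, against 8.26 to 11.9% in controls. Retention of PNN and PNISR in replicate 1 of the knockouts (1.24 to 3.42% and 4.24 to 10.9%) overlapped that in controls (2.01 to 3.61% and 7.61 to 11.9%). These libraries also have a low exon-intron share, which is counted from the same exon-intron reads over all genes. The part of knockout and library in the low retention cannot be told apart within replicate 1.

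**Figure D3:**
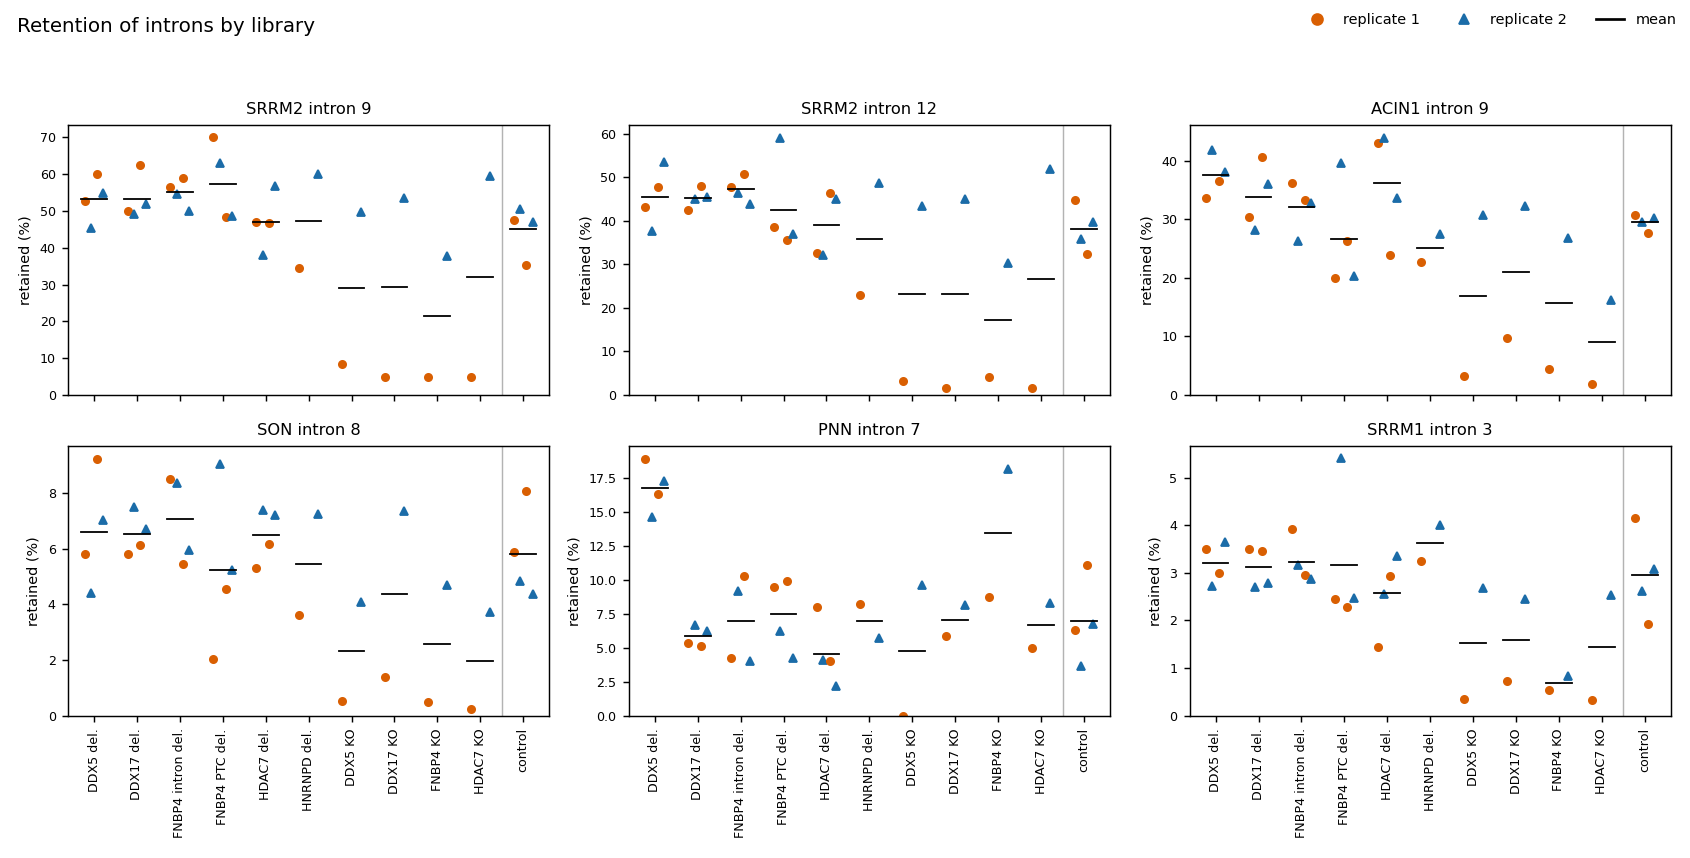
Percent retained (linear axis from 0) of 6 introns in each library, by edited group with controls at the right; circles are replicate 1, triangles replicate 2 and bars the mean. In SRRM2 introns 9 and 12, ACIN1 intron 9, SON intron 8 and SRRM1 intron 3 replicate 1 of every knockout lies below all other libraries. PNN intron 7 is highest in the DDX5 deletion (14.6 to 18.9%) and in replicate 2 of the FNBP4 knockout (18.2%).

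None of the 8 genes had its summed retention called in any of the 10 comparisons, in limma on the ratio of exon-intron to spliced reads. Of all 7229 genes 0.277% were called in the DDX5 deletion, 0.0138% in the intronic FNBP4 and the HDAC7 deletion, 0.0415% in the FNBP4 PTC exon deletion, 0.0277% in the DDX5 and DDX17 knockouts, 2.85% in the FNBP4 knockout, 0.0138% in the HDAC7 knockout and none elsewhere. In the DDX5 deletion 3 of the 8 had an unadjusted p under 0.05, as did 1112 of the 7229 genes. PNN was retained at 7.14, 6.70, 8.19 and 7.55% in the DDX5 deletion libraries, against 3.61, 2.01, 3.59 and 3.22% in controls. The groups did not overlap upward, as for 28.2% of all genes, whose median log2 change of the ratio was 0.37, and the change for PNN was 1.30 ± 0.32 (SE, adjusted p = 0.069, limma). BCLAF1 was retained at 1.54 to 2.09% in the deletion and 0.887 to 1.04% in controls, also without overlap (log2 change 0.87 ± 0.38, adjusted p = 0.28, limma). Its values rest on few exon-intron reads, 16 to 21 a library in the deletion and 7.5 to 11.5 in controls. The third, PNISR, was lower, at 5.44 to 7.62% in the deletion and 7.61 to 11.9% in controls (log2 change -0.67 ± 0.32, SE, adjusted p = 0.32, limma), and was called with only the libraries of this comparison in the fit (adjusted p = 0.047, limma). Retention of PNN was above all controls with both DDX5 hgRNAs, and the part of their exon-intron share in it was not tested. Without the 4 replicate 1 knockout libraries PNN and BCLAF1 were called, PNN at an adjusted p of 0.0021 and BCLAF1 at 0.021 (limma). Within PNN, intron 7 carried a difference, with 18.9, 14.6, 16.3 and 17.3% in the DDX5 deletion, against 6.34, 3.70, 11.1 and 6.78% in controls (log2 change of the ratio 1.27 ± 0.38, SE, adjusted p = 0.12, limma). As few as 21 reads stood behind a value of this intron. In the FNBP4 knockout 4 of the 8 genes had an unadjusted p under 0.05 for summed retention, all lower, as did 2198 of 7229 genes in either direction, where the median of all genes was -0.71, and 4 of the 8 had both libraries below all controls, as did 30.6% of genes. Without replicate 2, which leaves 1 library, ACIN1, SRRM2 and THRAP3 were called lower in the DDX5 knockout, these with SON and SRRM1 in the FNBP4 knockout, and BCLAF1, SRRM1, SRRM2 and THRAP3 in the HDAC7 knockout (limma).

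Of the 262 tested events of the 8 genes, 63 were introns and 82 exons, and the rest alternative splice sites. None was called in any comparison in limma (adjusted p under 0.05 and a change of 10 points). Few events of all genes were, 0.0286% in the DDX5 deletion, 0.000469% in the DDX17 deletion, 0.0155% in the FNBP4 PTC exon deletion, 0.00141% in the HNRNPD deletion, and 0 in the intronic FNBP4 and the HDAC7 deletion. In the DDX5, DDX17, FNBP4 and HDAC7 knockouts they were 0.00516, 0.0112, 0.00984 and 0.00703%. At an unadjusted p under 0.05 there were 8 to 37 of the 262 member events by comparison, with 21 in the DDX5 deletion (8.02%, against 11.9% of all events) and 37 in the HDAC7 knockout (14.1%, against 9.59%). The lowest adjusted p of a member event was 0.055, for an intron of BCLAF1 in the DDX5 deletion (limma).

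ACIN1 exon 4, printed above, had the control inclusion closest to an even split among the cassette exons of ACIN1. Inclusion is the percent of junction reads at the exon that join it. It was included at 47.4, 51.1, 47.9 and 50.7% in the FNBP4 PTC exon deletion, against 34.8, 34.9, 41.8 and 36.6% in controls. All 4 deletion libraries lay above all controls, with both hgRNAs alike, and replicate 1 of the HDAC7 deletion hgRNA 2 (47.7%) was the only other library in their range. The mean difference was 12.2 points and the log2 change of the ratio 0.72 ± 0.23 (SE), with an adjusted p of 0.21 (limma). The same exon was included at 28.2 and 21.2% in the DDX17 knockout, 29.3 and 20.5% in the FNBP4 knockout and 21.6 and 28.2% in the HDAC7 knockout, all below the controls, with adjusted p of 0.58, 0.30 and 0.32 (limma). In the DDX5 knockout it was 38.0 and 32.1%, and in the DDX5 deletion 25.9 to 33.05%, below all controls (adjusted p = 0.44, limma). The 62-base ACIN1 exon inside intron 8, chosen after its values were seen, was included at 16.95 to 24.4% in the DDX5 deletion, against 10.4 to 15.4% in controls, without overlap (log2 change 0.92 ± 0.33, adjusted p = 0.22, limma). How many of all events lay without overlap in these comparisons was not counted, so the separation of these exons from controls has no share beside it.

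Both retained introns of SRRM2 hold a cassette exon. The exon inside intron 9 (chr16:2759747-2760008, 262 bases) was included at 19.2 to 25.5% in the DDX5 deletion, against 15.5 to 20.9% in controls, with overlap. In replicate 1 of the knockouts it was included at 3.13 to 5.62% and in replicate 2 at 15.3 to 18.7%, so it was low in the libraries with low retention of intron 9. The exon inside intron 12 (chr16:2769862-2770209, 348 bases), chosen after its values were seen, was included at 0.0 to 1.85% in replicate 1 of the knockouts and 3.12 to 4.99% in replicate 2, against 4.18 to 7.46% in controls. THRAP3 exon 2 of 12 (chr1:36259382-36259484), which lies in or next to a UTR, was included at 93.5 ± 0.95% in controls (SD, n = 4) and at means of 90.7 to 94.4% in the edited groups. SON, SRRM1, PNN, BCLAF1 and PNISR had no cassette exon with a control inclusion between 5 and 95% and 20 reads in every library.

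**Figure D4:**
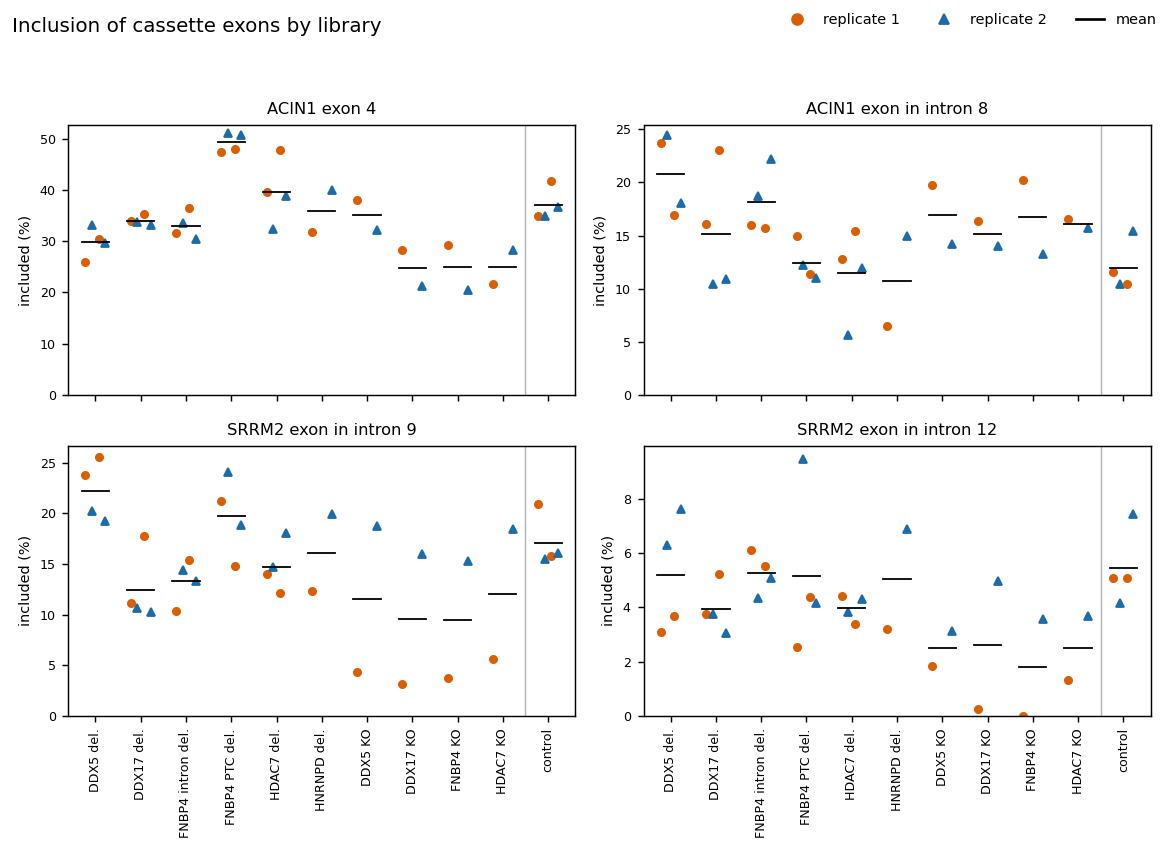
Percent included (linear axis from 0) of 4 cassette exons in each library, by edited group with controls at the right; circles are replicate 1, triangles replicate 2 and bars the mean. ACIN1 exon 4 is highest in the FNBP4 PTC exon deletion (47.4 to 51.1%), and the exons inside SRRM2 introns 9 and 12 are lowest in replicate 1 of the knockouts.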

How the data were processed

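RNA was total RNA, depleted of ribosomal RNA and made into stranded libraries, per the labels' protocols. RPKM values, log2 fold changes and p-values with false discovery rates are in the authors' deposited expression table; Salmon 1.10 and edgeR are named in the submitters' processing notes. Splicing was deposited by the authors as percent spliced in for each event, beside a quality string in which the junction reads stand, and these reads were used. A score of significance per event is also deposited, and its meaning is not given in the sources used here, so it supports nothing. Columns of 2 libraries that match no label were not used.

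Reads across spliced junctions were summed per gene, scaled by TMM and tested with limma 3.58.1 (voom, R 4.3.3) in genes whose reads reached 15 in all and, in at least 2 libraries, the equivalent of 10 reads in a library of median size. All 17 groups shared 1 estimate of spread. Retention was tested with limma on log2 of the ratio of exon-intron to spliced reads (pseudocount 1) in 7229 genes with 20 reads in every library and a mean of 5 exon-intron reads, and events with 20 reads in every library likewise. p-values were adjusted by Benjamini-Hochberg over all genes or events of a comparison, with a threshold of 0.05. These recovered reads are sums over junctions and not a deposited count table. Tables were made with Python 3.11.15, and the tests were run on simulated data first. Depth was 12353936 to 20233610 spliced reads a library, and a junction with 20 reads gives a coarse percent.

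The 8 genes and the other lists were chosen with earlier results of these data known. Named besides the 8 genes are up to 4 genes of a list with 3 or more calls, the 5 genes most like the mean of the 8, and for each gene the most retained intron in controls and the cassette exon nearest 50% inclusion between 5 and 95%. Alternatives were other scalings, filters, weights, pseudocounts, controls, a GC and length correction, a replicate block and leaving libraries out.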

Additional observations from a re-analysis of the deposited data

Results flagged for a closer look

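In 96 groups of 4 libraries, 6 values lay far from the other 3, where chance gives about 1 in 20 groups. SON in the DDX17 deletion was 136.1 CPM in replicate 2 of hgRNA 1, and 172.0 to 174.4 CPM in the others. THRAP3 was 140.3 CPM in the same library, and 177.7 to 184.5 CPM in the others. SRRM2 in controls was 175.3 CPM in replicate 2 of hgRNA 1, and 165.2 to 166.0 CPM in the others. Summed retention of SRRM1 in controls was 1.220% in replicate 1 of hgRNA 2, and 1.848 to 1.972% in the others. In the intronic deletion of FNBP4, summed retention of SON was 1.482% in replicate 2 of hgRNA 1 (0.978 to 1.062% in the others) and that of SRRM1 was 2.320% in replicate 1 of hgRNA 1 (1.674 to 1.745% in the others).

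PNISR differed by 1.284 on the log2 scale between the FNBP4 PTC exon deletion and the FNBP4 knockout, in a test of the difference itself.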

How the results depend on the processing

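No result changed direction past its threshold. In the DDX5 deletion, where 1 of the 8 genes was called, 2 were called with GC and length trends removed, 2 with the replicate block and 2 with both, 6 with only the libraries of the comparison, 3 without the 4 replicate 1 knockout libraries, 0 against control hgRNA 2 alone, 0 without the 3 libraries with many exon-intron reads, and 0 to 1 with single libraries left out. In the FNBP4 PTC exon deletion (0 called) there was 1 with a count of 50 as filter, 1 with only its own libraries and 0 to 2 with single libraries left out, and in the HNRNPD deletion (0 called) 1 with only its own libraries. Between the DDX5 deletion and the DDX5 knockout (0 called) there was 1 with the replicate block and GC and length trends removed and 1 without the 3 libraries with many exon-intron reads. Between the FNBP4 PTC exon deletion and the FNBP4 knockout (1 called) there were 0 without a filter, 0 without the 4 replicate 1 knockout libraries and 0 to 2 with single libraries left out. Between the 2 FNBP4 deletions (0 called) there were 0 to 1 with single libraries left out, and between the DDX5 and DDX17 deletions (0 called) 0 to 4, and 1 without the replicate 1 knockout libraries. Summed retention (0 called) gave 3 in the DDX5 deletion with only its own libraries and 2 without the replicate 1 knockout libraries, and with single libraries left out 0 to 3 in the DDX5 knockout, 0 to 5 in the FNBP4 knockout and 0 to 4 in the HDAC7 knockout. Each of these highest knockout counts came without replicate 2, which leaves 1 library, assumed to vary like the other groups. No splicing event was called under any alternative. The cause of these changes was not tested.

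Same-numbered replicates deviated together in the knockouts (correlations of 0.58 to 0.87 over 6 pairs of groups) and in control, DDX17 and HDAC7 deletion hgRNA 1 (0.88 to 0.95 over 3 pairs), but above 0.1 in only 45 of 136 pairs of groups, so numbers were not used as pairs. With the replicate block SRRM2 was called beside SON in the DDX5 deletion (0.48, adjusted p = 0.046, limma), and with GC and length trends removed as well it was called between the DDX5 deletion and knockout (0.55, adjusted p = 0.049, limma).

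Edited libraries numbered 4 in the DDX5, DDX17, FNBP4 and HDAC7 deletions and 2 in the HNRNPD deletion and in each knockout. The SE of a log2 change was 0.11 for SON and 0.33 for PNISR in the DDX5 deletion, and 0.14 and 0.47 in the DDX5 knockout. Small changes of the less abundant genes were thus not detectable. Libraries of 1 group are duplicates of 1 line, and p-values of the main fits measure only the spread between duplicates, pooled over all 17 groups. Wide gaps between replicates of other groups, as in the knockouts, thus enter the p-values of every comparison. The spread between the 2 hgRNAs of an edit does not enter them. Percent values of an event can rest on as few as 20 reads.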
